A study of Bos taurus with 8 samples.

Results

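Transcript levels of 6 genes of the core myogenic network were measured by RNA-seq in bovine preadipocyte clones: the myogenic regulatory factors *MYOD1*, *MYOG* and *MYF5*, and the myocyte enhancer factor 2 genes *MEF2A*, *MEF2C* and *MEF2D*. They were taken by gene symbol from the deposited count table, where all 6 were present among 18871 named gene IDs and all 6 were among the 18339 genes with at least 20 counts in total. *MYF6* and *MEF2B*, the remaining relatives in the same families, were not analysed here. The libraries came from 4 clones of intramuscular fat (IMF) and 4 clones of subcutaneous fat (SF), each grown from a single cell of the stromal vascular fraction (the non-adipocyte cells released by digesting fat tissue) of adult male Angus-cross steers. The methods place RNA extraction near confluence in growth medium, whereas the series description places adipogenic induction before sequencing, so the medium at harvest is uncertain. The clones had been picked for fast growth, fibroblast-like shape and the ability to form lipid droplets, so they represent cells that passed this selection. Each clone of a depot was described as coming from its own tissue sample. Which IMF and SF clones share a steer is not given in the sources used here.

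MYOD1, MYF5 and MYOG are basic helix-loop-helix proteins that bind the E-box motif as dimers with E proteins and switch on skeletal muscle genes. In muscle precursors, MYF5 and MYOD1 are known for setting muscle identity, and MYOG for driving the exit from proliferation into differentiation. MEF2 proteins carry a MADS domain, bind AT-rich sites and act together with the myogenic factors at many muscle promoters, but they do not start the muscle programme by themselves and are also active in endothelial, neural, cartilage and blood cells.

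The total count on named genes ranged from 19654917 to 29308882 per clone. Counts of 3 or fewer were treated as at the floor, and 3 counts corresponded to between 0.0981 and 0.165 CPM (CPM divides counts by the library total, scaled by edgeR's TMM factors). Such floors cover counting error only. No 2 clones of one depot agreed within sampling noise. The IMF clones were more alike than the SF clones, with a median coefficient of variation of 8.30% between IMF clones and 16.8% between SF clones over 15111 genes with a mean of at least 1 CPM in each respective depot. Between the depots, 1618 of 18339 genes (8.82%) passed the threshold used throughout, an adjusted p-value under 0.05 in edgeR's quasi-likelihood test and a change of 1 or more on the log2 scale, 877 of them higher in IMF (4.78%) and 741 lower (4.04%). With total counts alone in place of TMM factors, 1078 were higher and 539 lower.

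All 3 myogenic regulatory factors passed the threshold with more transcript in IMF, and none of the 3 MEF2 genes passed it, against the background of 8.82%. Counted by adjusted p alone the background was 25.8%, and the same 3 of the 6 genes passed. *MYOD1* (chromosome 15, 34794120 to 34796767, ARS-UCD2.0) had 3632, 4600, 3798 and 3195 counts in IMF1 to IMF4 and 0 counts in all 4 SF clones. *MYOG* (chromosome 16, 797555 to 800395) had 928, 1386, 855 and 718 counts in IMF1 to IMF4 and likewise 0 in every SF clone. *MYF5* (chromosome 5, 10284434 to 10287669), was counted 404, 608, 484 and 403 times in IMF1 to IMF4, and 0, 2, 0 and 5 times in SF1 to SF4. The depots did not overlap for these 3 genes, which was so for 32.1% of all genes tested, and only *MYF5* in SF4 exceeded 3 counts in a subcutaneous clone. Of the genes tested, 0.583% had 0 counts in every SF clone, as *MYOD1* and *MYOG* did.

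**Figure D1:**
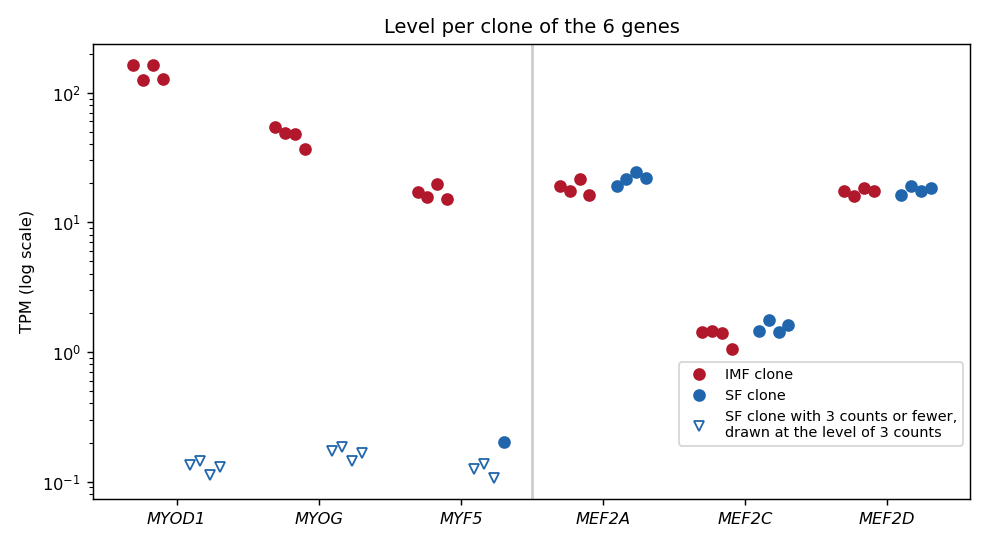
Level of the 6 genes in each clone in TPM on a log axis, with 4 IMF and 4 SF clones per gene. Filled circles are clones with more than 3 counts, and open triangles are SF clones with 3 counts or fewer, drawn at the level that 3 counts would give. *MYOD1*, *MYOG* and *MYF5* separate the depots, whereas *MEF2A*, *MEF2C* and *MEF2D* overlap.

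Measured in CPM, *MYOD1* stood at 162 ± 12.7 in IMF (SD, n = 4), at least 1098-fold above 3 counts per SF clone (adjusted p = 2.91e-06, edgeR's quasi-likelihood test). *MYOG* reached 40.7 ± 5.24 CPM in IMF, at least 275-fold above the same floor (adjusted p = 1.03e-05). For *MYF5* the IMF mean was 20.1 ± 1.26 CPM against 0.0939 ± 0.130 CPM for SF, which is a log2 fold change of 7.77 (95% interval 6.54 to 9.01, standard error 0.54, adjusted p = 3.56e-05), or 9.09 without SF4. All 3 calls remained in each of 18 alternative analyses, including those that left out 1 clone at a time. The libraries are bulk RNA of each clone, so that a smaller share of cells with a transcript and less transcript per cell cannot be told apart.

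The MEF2 genes were expressed in every clone of both depots. *MEF2A* (chromosome 21, 6860314 to 7040879), a broadly expressed family member, had 65.4, 67.1, 73.2 and 62.7 CPM in IMF1 to IMF4 and 71.4, 73.1, 86.2 and 91.0 CPM in SF1 to SF4. The ranges overlapped, with IMF3 above 2 of the SF clones. Its log2 fold change was -0.26 (standard error 0.10, 95% interval -0.49 to -0.04 before adjustment), with an adjusted p of 0.0886. Over the 18 alternatives the adjusted p ran from 0.0337 to 1 and was under 0.05 in 3, never with a change of 1 on the log2 scale.

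*MEF2D* (chromosome 3, 14329417 to 14362403), already present in proliferating myoblasts, had 60.8, 63.2, 62.9 and 68.2 CPM in the IMF clones and 62.1, 65.3, 61.9 and 77.4 CPM in the SF clones. Its log2 fold change of -0.06 (standard error 0.09, 95% interval -0.27 to 0.14, adjusted p = 0.647) was smaller than the spread between clones and turned to 0.09 with total counts alone and to 0.02 without SF4. *MEF2C* (chromosome 7, 88246676 to 88425804), the member best known from heart, vessel and skeletal muscle development, was the lowest of the family. Its counts were 118, 197, 121 and 99 in IMF1 to IMF4 and 122, 137, 144 and 141 in SF1 to SF4, equal to 5.58 ± 0.710 CPM and 6.68 ± 0.835 CPM (log2 fold change -0.26, 95% interval -0.60 to 0.08, standard error 0.15, adjusted p = 0.24). The depots overlapped for *MEF2C* and *MEF2D* as well. The 3 intervals lie inside a change of 1 on the log2 scale in either direction.

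Levels were compared between genes in TPM, which divides counts by gene length. In every IMF clone the order began with *MYOD1*, at 126 to 164 TPM, followed by *MYOG* at 36.8 to 53.9 TPM. Their ranges did not meet. *MEF2A* (16.2 to 21.6 TPM), *MEF2D* (16.0 to 18.2 TPM) and *MYF5* (15.2 to 19.8 TPM) came next with ranges that overlapped one another, and *MEF2C* was last at 1.05 to 1.44 TPM. *MYOD1* lay above 96.3% to 96.9% of the genes tested in an IMF clone, *MYOG* above 88.1% to 90.6% and *MYF5* above 73.8% to 76.2%. In the SF clones *MEF2A* led with 19.1 to 24.6 TPM, above *MEF2D* at 16.3 to 19.0 TPM in 4 of 4 clones, and *MEF2C* followed at 1.43 to 1.75 TPM.

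The make-up of each family changed little from clone to clone. Of the summed counts per kilobase of the 3 myogenic factors in an IMF clone, *MYOD1* held 69.4% ± 2.30, *MYOG* 22.4% ± 2.43 and *MYF5* 8.15% ± 0.558 (SD, n = 4). *MYOD1* exceeded *MYOG* by 3.04, 2.57, 3.45 and 3.45 times in IMF1 to IMF4. Within the MEF2 family, *MEF2A* made up 49.9% ± 2.27 in IMF and 53.1% ± 2.53 in SF, *MEF2D* 46.5% ± 2.49 and 43.1% ± 2.19, and *MEF2C* 3.57% ± 0.467 and 3.80% ± 0.347. The 2 depots overlapped in all 3 MEF2 shares. *MEF2D* exceeded *MEF2A* in IMF4 alone, with 50.0% against 46.9%. The summed MEF2 level was 34.6 to 41.3 TPM in IMF and 36.8 to 43.4 TPM in SF.

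**Figure D2:**
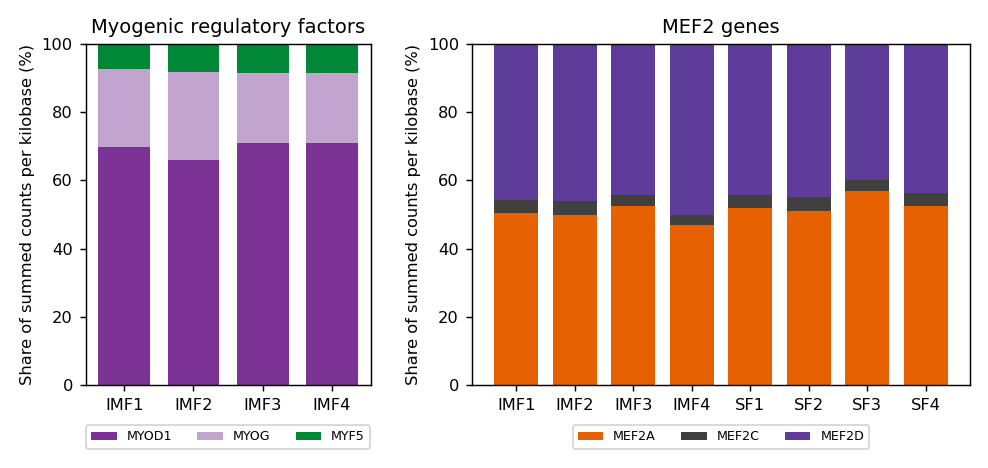
Share of each gene in the summed counts per kilobase of its family (%), one stacked bar per clone: the myogenic regulatory factors in the 4 IMF clones on the left, and the MEF2 genes in all 8 clones on the right. *MYOD1* takes from 66.1% to 71.0% of its family, and *MEF2C* from 3.03% to 4.12% of the MEF2 family.

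Among the IMF clones, *MYOG* varied more than most genes of its level. Its coefficient of variation was 12.9%, against a median of 5.64% over 2861 genes within 1.5 times its mean CPM, higher than 91.2% of them. The corresponding values were 7.85% against 4.78% for *MYOD1* and 6.29% against 6.72% for *MYF5*. *MYOG* was lowest in IMF4 at 34.2 CPM and stood at 44.5, 45.3 and 38.8 CPM in IMF1 to IMF3. *MYOD1* followed another order, with 174 and 172 CPM in IMF1 and IMF3 and 150 and 152 CPM in IMF2 and IMF4.

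Genes that the myogenic factors are known to activate in differentiating muscle differed between the depots as the factors did. Of 29 such genes tested, 27 were higher in IMF and past the threshold, 0 were lower (0 also at an unadjusted p under 0.05, in DESeq2 and in limma-voom), and 2 were not past it, or 93.1% against the background of 8.82%. Their median log2 fold change was 9.33, or 5.25 with genes at the floor in SF set to their lower bound, beside -0.03 over all genes tested. In 17 of the 29, every SF clone had 3 counts or fewer, which was so for 1.55% of all genes tested.

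*ACTC1*, the actin of the embryonic sarcomere, averaged 172 ± 13.4 CPM in IMF against 0.141 ± 0.219 CPM in SF (SD, n = 4, log2 fold change 10.26, or 12.17 without SF1, adjusted p = 1.21e-05). *MYH3*, embryonic myosin heavy chain, was at 126.7, 135.7, 121 and 108.9 CPM in IMF1 to IMF4 and had 5, 4, 1 and 3 counts in SF1 to SF4. *ACTA1*, the actin of mature fibres, was at least 683-fold higher in IMF. All 3 had lower levels in IMF4 than in the other IMF clones. *DES*, which encodes the muscle intermediate filament desmin, was well above the floor in 3 SF clones, with 377, 5, 173 and 397 counts in SF1 to SF4 (log2 fold change 3.01 with a standard error of 0.83, adjusted p = 0.0291). The *DES* call remained in 11 of 18 alternatives and in 3 of the 8 that left out a clone. It was lost without any one of the IMF clones or without SF3 (adjusted p from 0.0547 to 0.0769), with the replicate block and when tested against a change of 1 (adjusted p = 0.225). *CDKN1A*, a cell-cycle inhibitor raised when myoblasts withdraw from the cycle, differed by 0.38 on the log2 scale (134 ± 7.90 and 103 ± 14.7 CPM, adjusted p = 0.0358) and did not reach the fold threshold. *MYL4*, an embryonic myosin light chain, was not past the threshold either, with 59 counts in SF1 and from 3 to 9 in the other SF clones (adjusted p = 0.217). It passed without SF1 (log2 fold change 3.18, adjusted p = 0.00175) and in limma-voom (2.40, adjusted p = 0.0372). SF1 also held the most counts of *MYMK*, the myoblast fusion protein, among the SF clones, with 58 beside 8, 14 and 13, although *MYOD1* and *MYOG* were at 0 there.

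**Figure D3:**
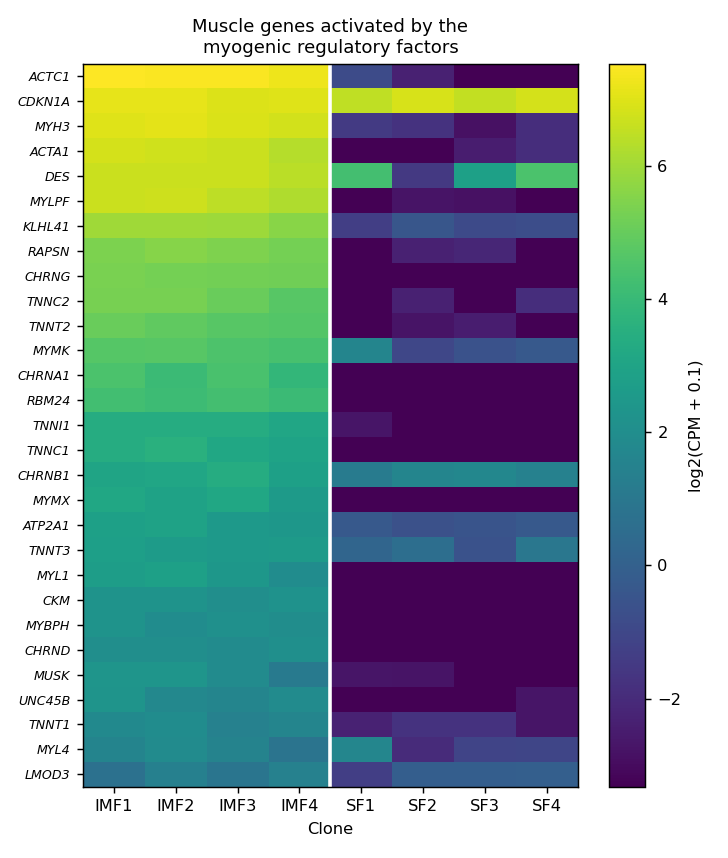
Level of 29 muscle genes activated by the myogenic regulatory factors, as log2(CPM + 0.1), with genes in rows ordered by their mean in IMF and the 8 clones in columns. The 4 IMF columns are bright for most genes and the 4 SF columns dark, except for *CDKN1A*, and *DES* shows 397 counts in SF4 beside 5 in SF2.

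The target genes also varied among the IMF clones. Of the 29, 21 (72.4%) had their lowest CPM in IMF4, the clone with the least *MYOG*, where 36.7% of all genes with a mean of at least 1 CPM in IMF were lowest. Their summed level was 1140, 1132, 1054 and 927 CPM in IMF1 to IMF4, and 106 to 143 CPM in the SF clones, where *CDKN1A* made up most of it. *MUSK*, the receptor kinase of the neuromuscular junction, had 4.89, 4.94, 3.72 and 2.14 CPM in IMF1 to IMF4, and *MYL1* had 6.48, 7.00, 5.26 and 3.81 CPM. *CHRNG*, the fetal acetylcholine receptor subunit, was nearly even at 40.4, 38.0, 37.4 and 36.5 CPM. This order among 4 clones is a description and has no test, and *MUSK* and *MYL1* were picked after their values were seen.

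Of 9 genes known as MEF2 targets, 1 was past the threshold, or 11.1%, close to the background of 8.82%. That gene was *XIRP1*, which encodes an actin-binding protein of the myofibre, with a mean of 31.7 ± 1.89 CPM in IMF against 1.37 ± 1.34 CPM in SF (log2 fold change 4.55, or 5.44 without SF1, adjusted p = 0.000899). The immediate-early gene *JUN* had 81.1 ± 2.17 and 59.2 ± 16.2 CPM (adjusted p = 0.0878), and *KLF4*, a growth-restraining zinc-finger factor, 32.0 ± 1.00 and 49.4 ± 14.9 CPM (adjusted p = 0.0694). This list shares no gene with that of the myogenic factors, so it does not stand for all genes that MEF2 proteins act on. Whether this list differs from the preceding one was not tested.

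**Figure D4:**
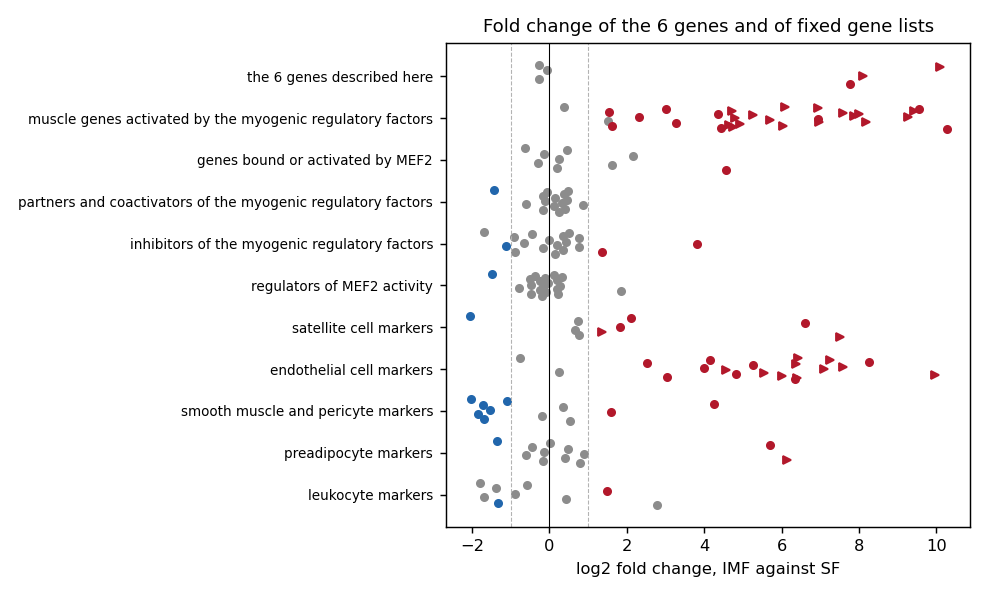
Log2 fold change between 4 IMF and 4 SF clones for the 6 genes and for each gene of the fixed lists (red, higher in IMF and past the threshold; blue, lower and past it; grey, not past it). Triangles are lower bounds for genes with 3 counts or fewer in every SF clone, and dashed lines mark a change of 1. The targets of the myogenic factors (27 of 29) and the endothelial markers (18 of 20) lie to the right, and the other regulators mostly between the dashed lines.

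Partners and coactivators of the myogenic factors were present in both depots. Of 15 tested, 0 were higher and past the threshold in edgeR's test, beside 4.78% of all genes. At an unadjusted p under 0.05, 6 were higher, and 0 were higher and past the threshold in DESeq2 and limma-voom. These counts cover the higher direction only. The E proteins that pair with MYOD1 and MYOG were below the fold threshold with TMM scaling: *TCF4* was at 44.6 ± 1.72 CPM in IMF against 24.6 ± 3.74 CPM in SF (log2 fold change 0.86, adjusted p = 0.00093, or 1.01 and past the threshold with total counts alone), *TCF3* had 43.9 ± 1.35 and 33.7 ± 5.01 CPM (0.38, adjusted p = 0.0295), and *TCF12* had 99.8 ± 0.948 and 153 ± 54.7 CPM (-0.61, adjusted p = 0.0955). *SETD7*, a lysine methyltransferase, was the most abundant, at 367 ± 6.99 and 267 ± 58.6 CPM (adjusted p = 0.0563).

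Inhibitors of the myogenic factors moved in both directions, and 3 of 18 tested were past the threshold (16.7% against 8.82% of all genes). *HEYL* and *HEY1*, transcriptional repressors downstream of Notch, were higher in IMF. *HEYL* had 17.2, 17.3, 16.4 and 17.4 CPM in IMF1 to IMF4 and 77, 7, 0 and 11 counts in SF1 to SF4 (log2 fold change 3.82, or 5.83 without SF1, adjusted p = 0.0169), and *HEY1* had a log2 fold change of 1.37 (adjusted p = 0.00349). *HES1*, another Notch target, was lower at 18.8 ± 0.963 against 40.9 ± 6.72 CPM (log2 fold change -1.12, adjusted p = 0.000321). With total counts alone *HES1* stood at -0.98, short of the fold threshold, so that no inhibitor was called lower. Of the ID proteins, which sequester E proteins, *ID1* ranged from 156 to 178 CPM in IMF and from 41.0 to 239 CPM in SF (log2 fold change 0.75, adjusted p = 0.329), but passed the threshold without SF3 (1.62, adjusted p = 0.000504). *ID3* had 87.6 ± 3.64 and 119 ± 19.6 CPM (log2 fold change -0.44, adjusted p = 0.0257). *ID2* was lower without overlap, at 50.7 to 61.6 CPM in IMF and 89.3 to 123 CPM in SF. Its log2 fold change ran from -0.95 to -0.74 over 18 alternatives, short of the fold threshold in each. *ID4* overlapped, at 26.3 to 36.0 and 13.3 to 44.1 CPM.

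Kinases, phosphatases and corepressors that set MEF2 activity were nearly all below the threshold, with 1 of 20 past it (5.00% against 8.82% of all genes) and a median log2 fold change of -0.14. *HDAC9*, a class IIa histone deacetylase that binds and represses MEF2, had 70 to 126 counts per clone in IMF and 84 to 359 in SF (log2 fold change -1.47, adjusted p = 0.0221). The *HDAC9* call was lost without any one of the 4 IMF clones or without SF4 (adjusted p from 0.0502 to 0.0583), in limma-voom (0.0745) and when tested against a change of 1 (0.593). Its relatives *HDAC5* (91.4 ± 1.91 and 99.3 ± 19.4 CPM, adjusted p = 0.547) and *HDAC7* (124 ± 7.04 and 147 ± 17.4 CPM, adjusted p = 0.104) were not past the threshold.

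The genes whose log2 CPM pattern over the 8 clones lay nearest to each of the 6 were found among 15865 candidates by the root mean square difference after centring each gene. Because the clones fall into 2 depots, this likeness mostly describes the difference between depots. Nearest to *MYOD1* was *SELP* (0.25 log2 CPM), which encodes the adhesion receptor P-selectin and had from 3126 to 4329 counts in an IMF clone and at most 1 in an SF clone, ahead of the muscle genes *MYLPF* (0.62), a fast myosin light chain, and *ACTA1* (0.80). Nearest to *MYOG* were *CHRNG* (0.10), the growth factor *PDGFB* (0.25) and *MYH3* (0.39). Nearest to *MYF5* were the fast-fibre troponin *TNNC2* (0.50), *CDH15* (0.53), which encodes M-cadherin, and *KLHL41* (0.53). The MEF2 genes had other neighbours in this measure, none of them past the threshold: *ZBTB6*, *ITSN1* and *SOS1* for *MEF2A* (0.04 to 0.05), *RHOC*, *SH3BGRL* and *CENPP* for *MEF2C* (0.06 to 0.07), and *PLEKHF2*, *MDM1* and *TMEM260* for *MEF2D* (0.05 to 0.06).

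The nearest tested protein-coding gene on each side of each of the 6 on the chromosome was also examined, and 3 of these 12 were past the threshold (25.0% against 8.82%). *OTOG*, 74695 bases from *MYOD1*, was counted 253 to 374 times per IMF clone and 0 times in SF, at least 84.4-fold higher. *KCNC1*, the potassium channel gene 14166 bases from *MYOD1* on the other side, went the opposite way near the floor. It had 0 counts in every IMF clone and 2 to 10 in the SF clones (at least 2.12-fold lower, adjusted p = 0.0428 in edgeR's test). *ADORA1*, the adenosine receptor gene 115231 bases from *MYOG*, had from 302 to 479 counts in IMF and 0 in SF (at least 112-fold higher), whereas *PPFIA4*, 6275 bases away on the other side, had 18.8 ± 1.76 and 13.2 ± 2.76 CPM (log2 fold change 0.51, adjusted p = 0.0366) and was below the fold threshold. *PTPRQ* and *ACSS3*, the nearest tested genes around *MYF5*, had adjusted p-values of 0.723 and 0.662. On each side 1 untested protein-coding gene lay between, and *ACSS3* was 384027 bases away. The 6 neighbours of the MEF2 genes were all below the fold threshold. By adjusted p alone in edgeR's test, *CETN3* (0.00276) and *CCT3* (0.0037) were higher in IMF, and *IQGAP3* (0.00694) and *LRRC28* (0.0268) lower. *LYSMD4* (0.114) and *TMEM161B* (0.305) were not under 0.05, which 25.8% of all genes were.

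Markers of several cell types were set beside the myogenic factors. Of 9 satellite cell markers tested, 5 were higher in IMF and 1 was lower (4.78% and 4.04% over all genes), with *CDH15* at least 181-fold higher, the laminin receptor *ITGA7* at 268 ± 8.71 against 2.82 ± 4.07 CPM (log2 fold change 6.59, or 8.20 without SF4), *NCAM1* at 184 ± 9.31 against 43.0 ± 26.5 CPM and the receptor kinase *MET* at 118 ± 9.04 against 32.9 ± 18.8 CPM. The remaining higher call, *PAX3*, was near the floor, with 4 to 18 counts per IMF clone and 0 in every SF clone. That call was lost without IMF2, with the replicate block and when tested against a change of 1. *SDC3*, a syndecan also used as a satellite cell marker, was lower in IMF at 16.8 ± 0.937 against 70.3 ± 26.1 CPM. Its relative *SDC4* (69.3 ± 2.85 against 40.6 ± 12.1 CPM, log2 fold change 0.77, adjusted p = 0.0154) and the signalling inhibitor *SPRY1* (9.17 ± 0.178 against 5.47 ± 0.765 CPM, 0.75, adjusted p = 0.00356) were below the fold threshold.

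Endothelial markers moved with the myogenic factors: 18 of 20 tested were higher in IMF (4.78% over all genes), 0 were lower and past the threshold in edgeR, DESeq2 or limma-voom (1, *FLT1*, was lower at an unadjusted p under 0.05), and their summed level was 468, 474, 481 and 522 CPM in IMF1 to IMF4 against 46.2 to 83.6 CPM in the SF clones. The junction cadherin *CDH5* had 53.9 ± 2.88 against 0.174 ± 0.0463 CPM, *NOS3* was at least 191-fold higher, and *EGFL7* had 40.6 ± 1.76 against 1.42 ± 0.780 CPM. Only *FLT1* and *CLDN5* were not past the threshold. In SF, 5 of the 20 were at 0 counts in every clone (0.583% over all genes) and 10 at 3 counts or fewer (1.55%). The part of these transcripts in the myogenic result was not tested. *MEF2C*, also an endothelial gene, did not follow them, with the values given above.

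Of 12 preadipocyte markers, 2 were higher in IMF (*CD34*, at least 70.8-fold, with at most 2 counts in any SF clone, and *FABP4*, with 9.63 ± 1.86 against 0.178 ± 0.207 CPM), 1 was lower (*PPARG*, log2 fold change -1.35) and 9 were not past the threshold, among them *PDGFRB* and *ITGB1*. Over all genes, 4.78% were higher and 4.04% lower, which also applies to the next 2 lists. Smooth muscle and pericyte markers went mostly the other way: 6 of 11 were lower in IMF, such as *ACTA2*, *TAGLN*, *CNN1* and *CSPG4* (log2 fold changes of -1.68, -1.09, -2.03 and -1.71), and 2 were higher, *MCAM* and *MYH11* (4.26 and 1.59). The calls for *ACTA2* and *MYH11* remained in 9 and 10 of 18 alternatives. That for *TAGLN* was lost without SF1 (-0.81), with total counts alone (-0.93) and when tested against a change of 1. *MCAM* had 104, 3, 3 and 0 counts in SF1 to SF4, and its log2 fold change was 8.04 without SF1, whereas its call was lost without IMF3 and when tested against a change of 1. Without SF1, *MYH11* was at 2.30. *SMTN* (84.9 ± 2.29 and 97.7 ± 53.0 CPM, adjusted p = 0.681) and *MYOCD* (19.1 ± 15.1 and 14.9 ± 3.09 CPM, adjusted p = 0.692) were not past the threshold. Of 9 leukocyte markers, 1 was higher (*CD14*) and 1 lower (*CD3E*, a call that remained in 11 of 18 alternatives), with a summed level of 39.8 to 93.9 CPM in IMF and 96.7 to 159 CPM in SF. *PTPRC*, the pan-leukocyte antigen, had 9.68 ± 7.28 and 33.3 ± 11.3 CPM (adjusted p = 0.0518), and passed the threshold in 5 of 18 alternatives: without IMF1 (adjusted p = 0.0217), without IMF2 (0.037), in limma-voom (0.0184), in DESeq2 and with the replicate block. *LCP1*, a leukocyte actin-bundling protein, had 32.2 ± 14.5 and 59.3 ± 11.7 CPM (adjusted p = 0.0943), and passed it without IMF4 (log2 fold change -1.15, adjusted p = 0.0484). The part of these cell types in the levels of the 6 genes was not tested.

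**Figure D5:**
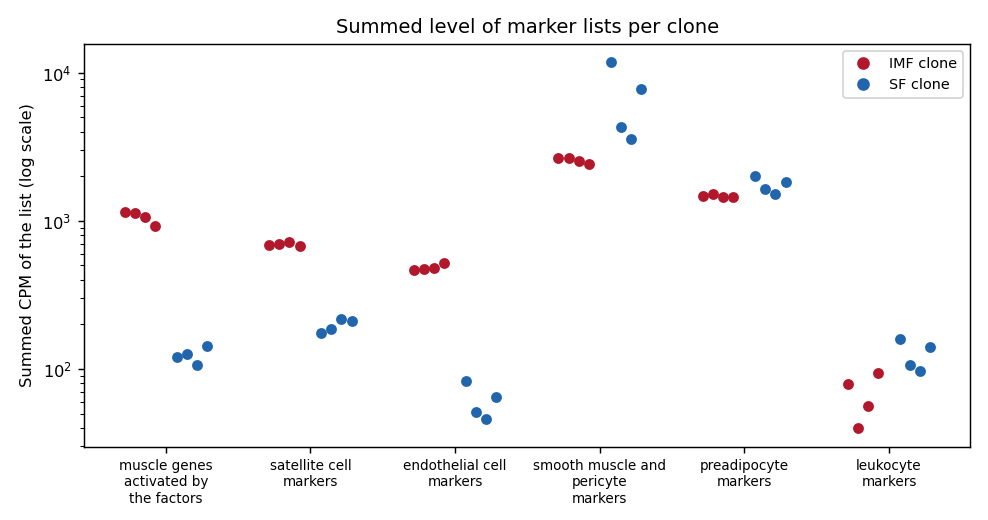
Summed CPM per clone, on a log axis, of the muscle genes activated by the myogenic factors and of 5 cell type marker lists, with 4 IMF and 4 SF clones per list. The muscle, satellite cell and endothelial sums are higher in all IMF clones (endothelial, 468 to 522 CPM against 46.2 to 83.6 CPM), and the smooth muscle, leukocyte and preadipocyte sums are lower, the last by a narrow margin (at most 1524 CPM in IMF, at least 1524 CPM in SF after rounding). *ITGB1* makes up most of the preadipocyte sum (901 to 963 CPM in IMF, 1081 to 1494 CPM in SF). *ACTA2* and *TAGLN* together make up most of the smooth muscle sum, so these sums do not stand for the whole lists.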

How the data were processed

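RNA-seq libraries of 4 IMF and 4 SF clones were analysed, with clones as replicates, grouped by sample title. The authors trimmed reads with Trimmomatic 0.39 and counted them with featureCounts 2.0.2 on ARS-UCD2.0, and they deposited raw counts per gene. The paper names HISAT2 as the aligner and the submitters' processing notes name STAR 2.7.11a. The paper calls the library kit non-stranded and the labels describe a dUTP protocol, so reads of overlapping opposite-strand genes may be shared. No protein-coding gene of the RefSeq list overlaps any of the 6 genes. The gene length used for TPM is the deposited one. The deposited group means, DESeq2 fold changes, p-values and categories were not used. The row without a gene name (at most 0.0209% of counts) was removed. Another 532 genes with fewer than 20 counts were not tested.

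Counts were tested with edgeR 4.0.16 (R 4.3.3; TMM, two-sided quasi-likelihood test, Benjamini-Hochberg adjustment over all genes tested), checked on simulated counts. Folds against a group with 3 counts or fewer in every clone are lower bounds at 3 counts per clone. DESeq2 1.42.0 and limma 3.58.1 (voom) were alternatives. The 6 genes and the lists were chosen with earlier results of these data known. In each list, genes past the threshold with the highest mean CPM (at most 4 in each direction) and the 2 highest not past it were named, beside the 3 nearest patterns and the flanking genes. *MYMK*, *MUSK*, *MYL1*, *TCF3*, *TCF4*, *PAX3*, *ID2* and *ID4* were named outside this rule after their values were seen. Gene positions come from RefSeq's list for the ARS-UCD2.0 assembly. The sources tie each clone to its own tissue sample but not to a steer, so p-values measure the spread between these clones. One gene that the rule selected is not reported here.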

Additional observations from a re-analysis of the deposited data

Results flagged for a closer look

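Of 110 sets of 4 clones of one depot, 8 held a clone that stood apart from the other 3 by Dixon's criterion, where chance gives about 1 in 20. In SF1, *MYL4* was at 3.03 CPM beside 0.150 to 0.386 in the other SF clones, *HEYL* at 3.95 CPM beside 0 to 0.606, *MCAM* at 5.34 CPM beside 0 to 0.150, and *MYH11* at 8.73 CPM beside 1.87 to 2.85. *KLF4* was low in SF1 at 27.1 CPM beside 55.4 to 58.7. *SELP* was at 0.0513 CPM in SF1, which is 1 count, and at 0 in the other SF clones. *ID1* was at 239 CPM in SF3 beside 41.0 to 60.8. Among the IMF clones, *DES* was at 85.2 CPM in IMF4 beside 101 to 102. None of the 6 myogenic and MEF2 genes stood apart in this way.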

How the results depend on the processing

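*MYOD1*, *MYOG* and *MYF5* kept their direction and call in all 18 alternatives, with log2 fold changes from 10.81 to 14.88, 8.82 to 12.90 and 6.83 to 9.09, the lowest of *MYOD1* and *MYOG* set by the prior count. No MEF2 gene was past the threshold in any of them. *MEF2A* ranged from -0.33 to -0.11 and *MEF2C* from -0.36 to -0.10. *MEF2D* turned to 0.089 with total counts alone, which moved the median of all genes from -0.03 to 0.12, and to 0.016 without SF4 (range without 1 clone, -0.13 to 0.016); the cause was not tested. Testing against a log2 fold change of 1 (glmTreat) left 631 genes past the threshold, 3 satellite cell markers, and 0 partners, 0 inhibitors, 0 MEF2 regulators, 0 smooth muscle and 0 leukocyte markers. MEF2 targets past the threshold numbered 2 with DESeq2 and with total counts alone and 3 with limma-voom, leukocyte markers 4 with DESeq2, limma-voom and the replicate block, and partners 2 with total counts alone. Without 1 clone, counts ranged from 1 to 2 (MEF2 targets; 2 without SF1, SF2 or SF3), 1 to 2 (partners; 2 without SF1), 3 to 5 (inhibitors; 5 without SF1 or SF3), 0 to 2 (MEF2 regulators; 0 without SF4 or any IMF clone, 2 without SF1), 5 to 7 (smooth muscle; 5 without IMF3) and 1 to 4 (leukocytes; 4 without IMF4, 1 without IMF3, SF1 or SF2). Without division by length, *MYOD1* held 72.7%, *MYOG* 18.2% and *MYF5* 9.03% of their sum, and *MEF2C* 4.09% in IMF and 4.35% in SF.

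IMF and SF clones share the numbers 1 to 4, but same-numbered clones did not deviate together in every pair (correlations of -0.00933 to 0.139), and 2 of 4 IMF and 2 of 4 SF clones correlated best with their own number. With the replicate block, 1489 genes were past the threshold, 1356 of them among the 1618, and the log2 fold changes of *MEF2A*, *MEF2C* and *MEF2D* were -0.26, -0.26 and -0.06, with no call among the 6 genes changed.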
